A study of Mus musculus with 9 samples.

Results

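Zmpste24 and 9 genes that process prelamin A or build the nuclear lamina were followed across 9 RNA sequencing libraries of mouse embryonic stem (ES) cells. The 10 genes are Zmpste24, Rce1, Icmt, Fnta, Fntb, Lmna, Lmnb1, Lmnb2, Lbr and Emd. They were matched by symbol to the Ensembl identifiers of the count files, and all 10 were found among 37310 gene rows and passed the filter on low counts that left 16224 genes for testing. Zmpste24 anchors the group: it was chosen by its own count in the libraries labelled Zbtb11 KO, which was very low against both controls, and those values are given as a description with no test. The other 9 genes belong by function, not by their own values, but were chosen with earlier results of these data known.

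All cells derive from the E14 parental ES line and were collected after 72 h, with 3 libraries in each of 3 groups. The labelled KO group has the Zbtb11lox/lox genotype with ERt2-Cre at the Rosa26 locus, and its cells received 250 nM 4-hydroxytamoxifen (4OHT), the ligand that activates this recombinase. The 4OHT control has Zbtb11WT/WT and a WT Rosa26 locus and received 250 nM 4OHT. The ethanol control has the same Zbtb11lox/lox, ERt2-Cre genotype as the labelled KO group and received the carrier ethanol. Line and drug both distinguish the 4OHT control from the ethanol control and cannot be told apart. Whether replicates were grown as separate cultures is not stated, and p-values then describe only library-to-library spread, which may be technical.

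Prelamin A, a precursor encoded by Lmna, ends in a CAAX motif. Farnesyltransferase attaches a farnesyl lipid to it, Rce1 or Zmpste24 cuts off the end of the motif, Icmt methylates the new end, and Zmpste24 then cuts again to release mature lamin A without its lipid. B-type lamins (Lmnb1, Lmnb2) pass through the same early steps and keep the lipid. Loss of human ZMPSTE24 leaves farnesylated prelamin A at the nuclear envelope and causes progeroid disease. ES cells are known for low A-type lamin and for an envelope that rests largely on B-type lamins and the lamin B receptor Lbr.

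The start region of Zmpste24 is shown because this gene anchors the group, beside that of Rce1, the other CAAX protease. Both are the 250 bases before the RefSeq start on GRCm38.p6, the build of the sequence table and not the mm9 of the count files. Capitals mark CGGAAG, the core bound by ETS factors such as GABP, and CCAAT, on either strand (CTTCCG and ATTGG on the reverse). The Zmpste24 window is chr4:121098211-121098460, minus strand, and its 31 bases nearest the start lie inside the GENCODE M21 gene model. The Rce1 window is chr19:4625646-4625895, minus strand.
Zmpste24: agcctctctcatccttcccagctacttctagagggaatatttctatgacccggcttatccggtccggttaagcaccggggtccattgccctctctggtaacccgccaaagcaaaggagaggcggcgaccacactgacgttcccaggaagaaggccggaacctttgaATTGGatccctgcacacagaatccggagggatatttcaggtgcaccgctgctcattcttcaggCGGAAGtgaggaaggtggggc
Rce1: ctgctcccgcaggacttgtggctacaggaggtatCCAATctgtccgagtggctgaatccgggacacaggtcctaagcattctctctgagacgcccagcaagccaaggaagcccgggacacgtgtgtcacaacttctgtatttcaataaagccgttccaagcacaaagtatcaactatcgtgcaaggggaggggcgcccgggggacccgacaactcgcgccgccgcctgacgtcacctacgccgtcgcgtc

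The Zmpste24 window holds 1 CGGAAG and 1 CCAAT on the reverse strand. The first base of the CGGAAG lies 21 bases before the RefSeq start, and so inside the GENCODE gene model. CGGAAG is in 13.6% and CCAAT in 33.8% of all 32851 windows of this length in the table. Of the 10 genes, 4 (Zmpste24, Rce1, Lmnb2 and Emd) had a window with at least 200 bases outside their GENCODE gene model. Among these 4, CGGAAG was in 1 and CCAAT in 3. The shares over all windows were taken without this limit. A match is a description of letters, not a site.

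Gene counts per library ran from 16909139 to 23544893. The targeted gene, Zbtb11, averaged 377 ± 8.47 CPM across labelled KO libraries, 368 ± 9.31 CPM across the 4OHT control and 355 ± 6.70 CPM across the ethanol control (SD, n = 3), where CPM is the count scaled to library size after TMM normalization. The 3 groups were close to each other. Which exons lie between the loxP sites is not known here, and a gene-level count that includes them and others cannot show whether the allele or the protein was lost; the group is therefore called labelled KO. Replicate 3 of the labelled KO group stood further from its group than other libraries did: a chi-square of the counts per gene was 15.6 and 16.7 for its pairs with replicates 1 and 2, against 4.97 to 7.55 for every other pair within a group. Reads assigned to no gene made up 32.7% to 33.8% of each labelled KO library, 26.7% to 27.5% of each 4OHT control library and 26.4% to 28.7% of each ethanol control library, so the labelled KO libraries lay above all 6 controls in this share, and its part in the results was not tested. The call of a member gene that changed without labelled KO replicate 3 is given beside that gene.

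Summed over 8 ES cell markers, including Pou5f1, Nanog and Sox2, the libraries held 3550 to 3688 CPM in the labelled KO group, 3726 to 4149 CPM in the 4OHT control and 3809 to 3924 CPM in the ethanol control. All 8 were detected in every library. Summed over 8 fibroblast or feeder markers the ranges were 22.6 to 23.9, 18.4 to 19.0 and 18.8 to 22.9 CPM in the same group order, with Lum at 0 in 7 and S100a4 at 0 in 6 of 9 libraries. The 6 endoderm markers summed to 18.9 to 22.2 CPM in the labelled KO libraries, 9.16 to 11.1 CPM in the 4OHT control and 10.9 to 17.1 CPM in the ethanol control. The 6 trophoblast markers summed to 87.3 to 90.9, 53.0 to 72.1 and 86.4 to 90.4 CPM in that order. The 3 matched neural markers summed to 143 to 163, 167 to 192 and 145 to 173 CPM, and the 4 mesoderm markers to 4.78 to 7.98, 3.99 to 7.07 and 4.66 to 7.24 CPM. None of the endoderm, trophoblast or neural markers was at 0 in any library, while the mesoderm markers Hand2 and Mesp1 were at 0 in 2 and 1. By edgeR against the ethanol control, the ES cell markers Utf1 (log2 fold change -0.39, adjusted p = 0.0012) and Esrrb (-0.24, 0.031) were lower in labelled KO libraries. The endoderm markers Gata6 (1.20, 0.0010), Sox17 (1.04, 0.031) and Gata4 (0.84, 0.029) were higher there. Mean levels of Gata6, Sox17 and Gata4 were low, at 3.63, 0.74 and 3.84 CPM in labelled KO libraries. In the ethanol control they were 1.58, 0.36 and 2.12 CPM, and Sox17 had at most 19 counts in any library. No other tested marker was called. The part of these marker levels in the results was not tested.

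Zmpste24 (ENSMUSG00000043207.4), the zinc metalloprotease that removes the farnesylated tail of prelamin A, was counted 104, 77 and 52 times in the labelled KO libraries, 1383, 1145 and 1340 times in the 4OHT control and 1182, 1224 and 845 times in the ethanol control. Scaled to depth, these counts are 4.41, 3.75 and 2.70 CPM in labelled KO, 65.6, 67.3 and 64.4 CPM in 4OHT control and 53.8, 53.5 and 50.5 CPM in ethanol control libraries. Each labelled KO library lay far below all 6 controls, and the 3 groups did not overlap.

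In GENCODE M21, 1.75% of its exon bases are shared with Gm26186 on the same strand. The labelled KO level was 6.97% of the ethanol control (log2 fold change -3.84, SE 0.11) and 5.58% of the 4OHT control (-4.16, SE 0.11). Only 9 of the 16224 genes had a lower log2 fold change against the ethanol control, where 73 fell at least 4-fold. Between same-numbered libraries the log2 difference from the ethanol control was -3.58, -3.80 and -4.17. Without labelled KO replicate 3 the log2 fold change was -3.69. Over all alternatives tried it lay between -4.03 and -3.69 against the ethanol control and between -4.34 and -4.00 against the 4OHT control. In bulk RNA a small share of cells with the full level and a low level in every cell cannot be told apart.

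The comparison of the 2 controls with each other was not used to choose Zmpste24. It is not independent of that choice, because the libraries of both controls were part of it. The level of Zmpste24 was 65.7 ± 1.46 CPM in the 4OHT control and 52.6 ± 1.83 CPM in the ethanol control (SD, n = 3). This is a rise of 0.32 on the log2 scale (SE 0.08, edgeR adjusted p = 0.0098). The order of the groups was therefore 4OHT control, ethanol control, labelled KO, and no library of one group lay within the range of another.

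**Figure D1:**
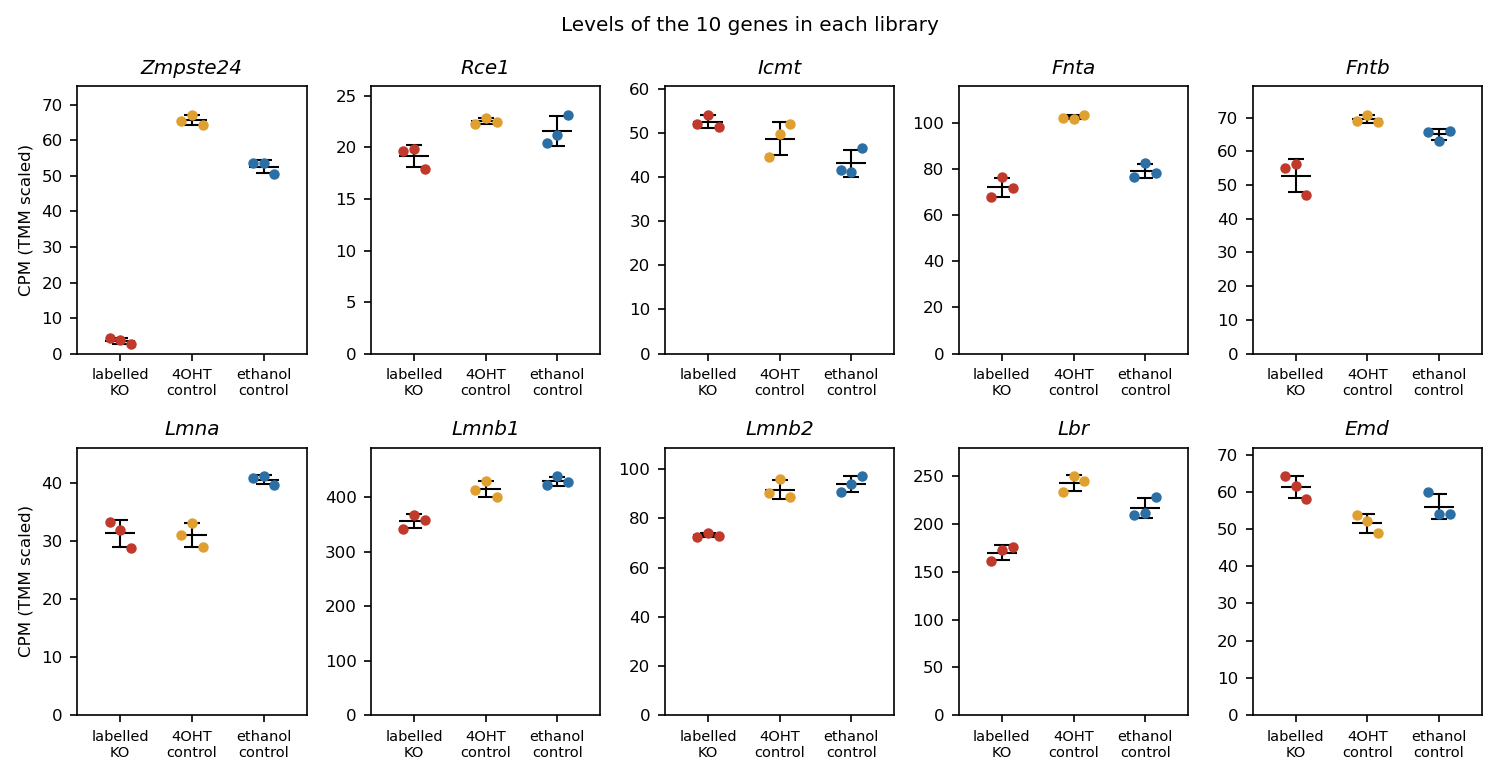
CPM after TMM scaling of each of the 10 genes, by group; points are libraries, horizontal marks are means and bars are SD (n = 3), and every axis starts at 0. Zmpste24 sits between 2.70 and 4.41 CPM in the labelled KO libraries and above 50 CPM in all 6 controls, while the other 9 genes differ between groups by much less.

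The other genes of the pathway and the lamina differed by small amounts. Against the ethanol control 5 of the 9 fell in the labelled KO libraries (Fntb, Lmna, Lmnb1, Lmnb2 and Lbr), 1 rose (Icmt) and 3 were not called (Rce1, Fnta and Emd). By the same edgeR test 27.2% of all tested genes were called, 14.2% lower and 13% higher, so that 47.8% of calls were higher, or 66.5% with library totals in place of TMM. The median log2 fold change of the 9 was -0.27, beside 0.01 over all genes tested. Against the 4OHT control 6 fell (Rce1, Fnta, Fntb, Lmnb1, Lmnb2 and Lbr), 1 rose (Emd) and 2 were not called, with a median of -0.23 beside 0.02. There 38.9% of all genes were called, 19.8% lower and 19.1% higher, so that 49.1% of calls were higher, or 64.4% with library totals. Both comparisons use the same labelled KO libraries, so they are not independent, and in both the higher share of reads assigned to no gene moves with the labelled KO group.

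Rce1 (ENSMUSG00000024889.3), the CAAX protease of the endoplasmic reticulum, had 19.7, 19.8 and 17.9 CPM in labelled KO, 22.3, 22.9 and 22.5 CPM in 4OHT control and 20.4, 21.2 and 23.2 CPM in ethanol control libraries. The labelled KO libraries were the lowest, by a narrow margin over the ethanol control. Set against the ethanol control, Rce1 had a log2 fold change of -0.17 (SE 0.08, edgeR adjusted p = 0.12), or -0.10 with library totals in place of TMM (adjusted p = 0.39). Against the 4OHT control the value was -0.23 with an SE of 0.08, which passed the test (edgeR adjusted p = 0.027). This call ended without labelled KO replicate 3 (-0.19, adjusted p = 0.086), without 4OHT control replicate 2 (0.069) or 3 (0.060), without a filter on low counts (0.055) and with library totals (-0.15, 0.16).

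Icmt (ENSMUSG00000039662.10), which methylates the trimmed end of CAAX proteins, was the 1 enzyme that rose against the ethanol control. It had 52.0, 54.1 and 51.3 CPM in labelled KO, 44.4, 49.7 and 51.9 CPM in 4OHT control and 41.6, 41.1 and 46.6 CPM in ethanol control libraries. Labelled KO and ethanol control libraries did not overlap (log2 fold change 0.29, SE 0.07, edgeR adjusted p = 0.0066), whereas labelled KO and 4OHT control libraries did (0.11, SE 0.07, adjusted p = 0.24, or 0.19 and 0.041 with library totals, and 0.04 and 0.67 without 4OHT control replicate 1). The 4OHT control against the ethanol control gave 0.18 (adjusted p = 0.093), which was called with the replicate number as a block (0.012) and without 4OHT control replicate 1 (0.034).

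Fnta (ENSMUSG00000015994.9) encodes the alpha subunit of farnesyltransferase, which is shared with the geranylgeranyl enzyme GGTase I, and Fntb (ENSMUSG00000033373.10) encodes the beta subunit. Fnta had 68.2, 76.6 and 71.9 CPM in labelled KO, 102, 102 and 104 CPM in 4OHT control and 76.5, 82.6 and 78.5 CPM in ethanol control libraries. The 4OHT control stood above both groups of the floxed line, which overlapped in 1 library. Fnta fell by 0.51 on the log2 scale against the 4OHT control (SE 0.06, edgeR adjusted p = 3.1e-06). Against the ethanol control its log2 fold change was -0.13 (SE 0.06, adjusted p = 0.086), which was called with the replicate block (0.011) and without labelled KO replicate 2 (-0.19, 0.027), whereas library totals gave -0.06 (0.39). In the 4OHT control it was higher than in the ethanol control by 0.37 (SE 0.06, adjusted p = 0.00019).

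Fntb had 55.0, 56.1 and 47.1 CPM in labelled KO, 68.9, 70.9 and 68.7 CPM in 4OHT control and 65.9, 63.0 and 66.1 CPM in ethanol control libraries. The labelled KO libraries lay below all 6 controls, with replicate 3 the lowest. It fell by 0.30 against the ethanol control (SE 0.06, edgeR adjusted p = 0.0030) and by 0.40 against the 4OHT control (SE 0.06, adjusted p = 0.00018), and the 2 controls differed by 0.10 (SE 0.06, adjusted p = 0.34). In GENCODE M21, 6.45% of its exon bases are shared with Churc1 on the same strand, and how reads there were counted is not known.

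Among lamins, Lmna (ENSMUSG00000028063.9) is the gene of lamin A and lamin C, which gene counts do not separate. It had 33.3, 31.9 and 28.9 CPM in labelled KO, 31.1, 33.1 and 29.0 CPM in 4OHT control and 41.0, 41.2 and 39.7 CPM in ethanol control libraries. The ethanol control was high, and the other groups overlapped with each other. Lmna fell against the ethanol control by 0.37 in the labelled KO libraries (SE 0.07, edgeR adjusted p = 0.0013) and by 0.39 in the 4OHT control (SE 0.07, adjusted p = 0.0013). Labelled KO against 4OHT control gave 0.02 (SE 0.07, adjusted p = 0.88), which ran from -0.033 to 0.069 as single libraries were left out and was 0.10 with library totals (adjusted p = 0.32). Both the labelled KO libraries and the 4OHT control were thus lower in Lmna than the ethanol control. Line and drug cannot be told apart in the 4OHT control, and the cause was not tested.

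Lmnb1 (ENSMUSG00000024590.8), the gene of lamin B1, had 342, 368 and 359 CPM in labelled KO, 414, 429 and 401 CPM in 4OHT control and 423, 439 and 427 CPM in ethanol control libraries. Lmnb2 (ENSMUSG00000062075.6), the gene of lamin B2, had 72.6, 74.2 and 73.0 CPM in labelled KO, 90.3, 96.0 and 88.6 CPM in 4OHT control and 90.8, 94.2 and 97.2 CPM in ethanol control libraries. In both genes the labelled KO libraries lay below all 6 controls, and the controls overlapped.
Lamin B1 transcript fell by 0.27 against the ethanol control (SE 0.05, edgeR adjusted p = 0.00065) and by 0.22 against the 4OHT control (SE 0.05, adjusted p = 0.0019), the second being -0.14 with library totals (adjusted p = 0.022). Lmnb2 fell by 0.36 (SE 0.05, adjusted p = 0.00012) and by 0.32 (SE 0.05, adjusted p = 0.00017) in the same order. Between the controls the log2 fold changes were -0.05 for Lmnb1 (adjusted p = 0.51) and -0.04 for Lmnb2 (adjusted p = 0.67).

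Lbr (ENSMUSG00000004880.6), an inner nuclear membrane protein that binds lamin B and heterochromatin and is also a sterol reductase, had 161, 172 and 176 CPM in labelled KO, 233, 250 and 245 CPM in 4OHT control and 209, 212 and 229 CPM in ethanol control libraries. The 3 groups did not overlap. It fell by 0.35 against the ethanol control (SE 0.05, edgeR adjusted p = 0.00023) and by 0.52 against the 4OHT control (SE 0.05, adjusted p = 2.2e-06). The 4OHT control was higher than the ethanol control by 0.17 (SE 0.05, adjusted p = 0.044). That call ended without ethanol control replicate 1 (0.17) or 2 (0.16), labelled KO replicate 2 (0.055) or 4OHT control replicate 2 (0.16) or 3 (0.13), and without a filter on low counts (0.055). Of the exon bases of Lbr, 10.7% are shared with Dnah14 on the opposite strand or Gm26004 on the same strand.

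Emd (ENSMUSG00000001964.8) encodes emerin, a LEM domain protein of the inner nuclear membrane that binds lamins. It had 64.2, 61.7 and 58.2 CPM in labelled KO, 53.8, 52.1 and 48.8 CPM in 4OHT control and 59.8, 53.9 and 54.1 CPM in ethanol control libraries. The labelled KO libraries were above the 4OHT control and overlapped the ethanol control in 1 library. It rose by 0.25 against the 4OHT control (SE 0.06, edgeR adjusted p = 0.0058). Against the ethanol control it had 0.13 (SE 0.06, adjusted p = 0.14), which passed once library totals replaced TMM (0.20, adjusted p = 0.039) or the replicate number was a block (0.019). A processed pseudogene, Gm14686, overlaps 13.6% of its exon bases on the same strand, and how reads in the overlap were counted is not known.

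**Figure D2:**
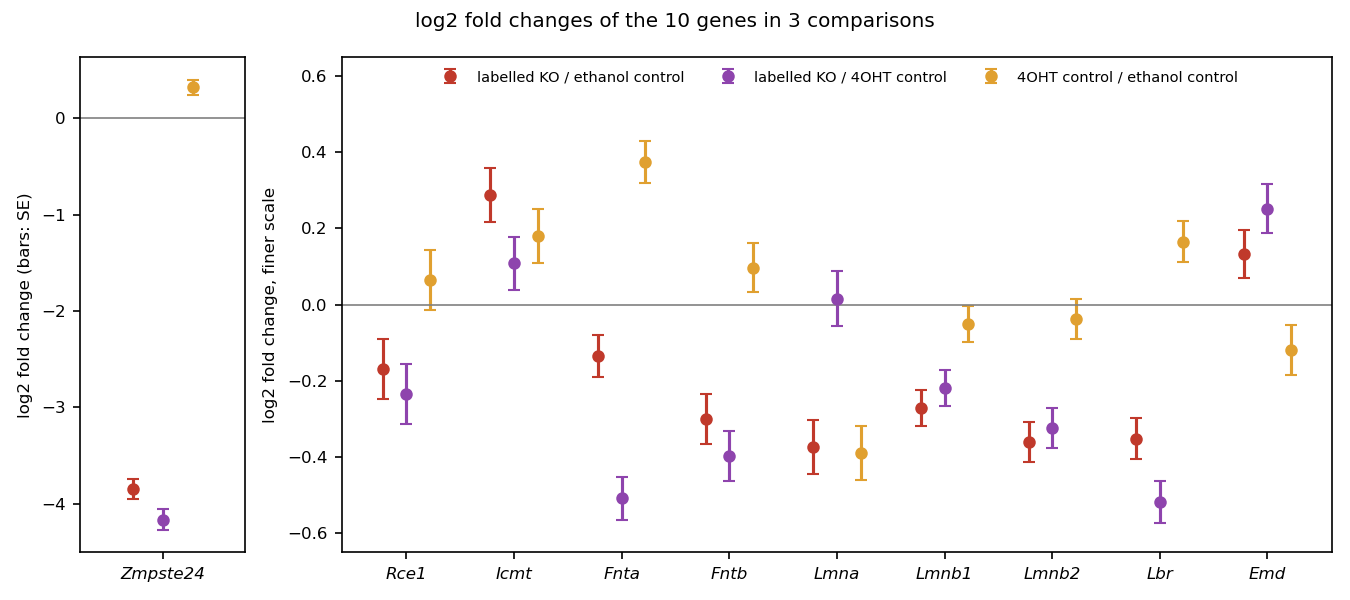
log2 fold changes with SE from the edgeR fit of all 9 libraries, with Zmpste24 on its own axis at the left and the other 9 genes at a finer scale. Rce1, Fnta, Fntb, Lmnb1, Lmnb2 and Lbr lie below 0 against both controls, of which Rce1 and Fnta were not called against the ethanol control. Lmna lies below 0 against the ethanol control in both the labelled KO libraries and the 4OHT control.

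The comparison of the 4OHT control with the ethanol control showed how far these genes differ without a labelled deletion. Zmpste24, Fnta and Lbr were higher in the 4OHT control, Lmna was lower, and the other 6 were not called, with 18.4% of all genes called (9.66% higher and 8.75% lower). For Lmna and Fnta the difference between the controls was 0.39 and 0.37 in size, as large as or larger than their difference between the labelled KO libraries and the ethanol control.

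Levels of different genes were compared per kilobase of exon, in CPM per kb. In the labelled KO libraries the order from high to low was Lmnb1 (120 ± 4.38), Lbr (35.7 ± 1.63), Emd (24.4 ± 1.20), Fnta (24 ± 1.39), Lmnb2 (17.1 ± 0.20), Fntb (13.2 ± 1.23), Icmt (9.92 ± 0.27), Rce1 (9.20 ± 0.51), Lmna (5.37 ± 0.39) and Zmpste24 (0.51 ± 0.12) (SD, n = 3). Emd and Fnta, neighbours in that order, did not differ beyond their spread. In the ethanol control Zmpste24, at 7.36 ± 0.26 CPM per kb, was next to Lmna at 6.96 ± 0.14 and Icmt at 8.14 ± 0.57. In the 4OHT control it was level with Icmt, at 9.20 ± 0.20 beside 9.21 ± 0.73. With the length of the longest transcript in place of all exons Zmpste24 was still last in the labelled KO libraries, but ranked 7 of 10 in the 4OHT control and 8 of 10 in the ethanol control, where it ranked 9 of 10 by all exons, and Icmt stood below Rce1 in the labelled KO libraries.

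The makeup of lamin transcripts, per kilobase, was nearly the same in all libraries. Lmnb1 made up 83.6% to 84.6% of the summed lamin level in the labelled KO libraries, 83.8% to 84.1% in the 4OHT control and 83.0% to 83.6% in the ethanol control. Lmnb2 made up 11.8% to 12.3%, 12.7% to 13.0% and 12.4% to 13.1% in that order. Lmna made up 3.46% to 4.13%, 3.09% to 3.28% and 3.92% to 4.11%. In the Lmna share only the 4OHT control stood apart, below every library of the floxed line. In the Lmnb2 share the labelled KO libraries lay below every control library. This held with the length of the longest transcript, at most 13.8% in labelled KO and at least 13.9% in the controls. The summed level of the endoderm markers, given above, was highest in the labelled KO libraries. The part of these markers in the Lmna level was not tested.

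**Figure D3:**
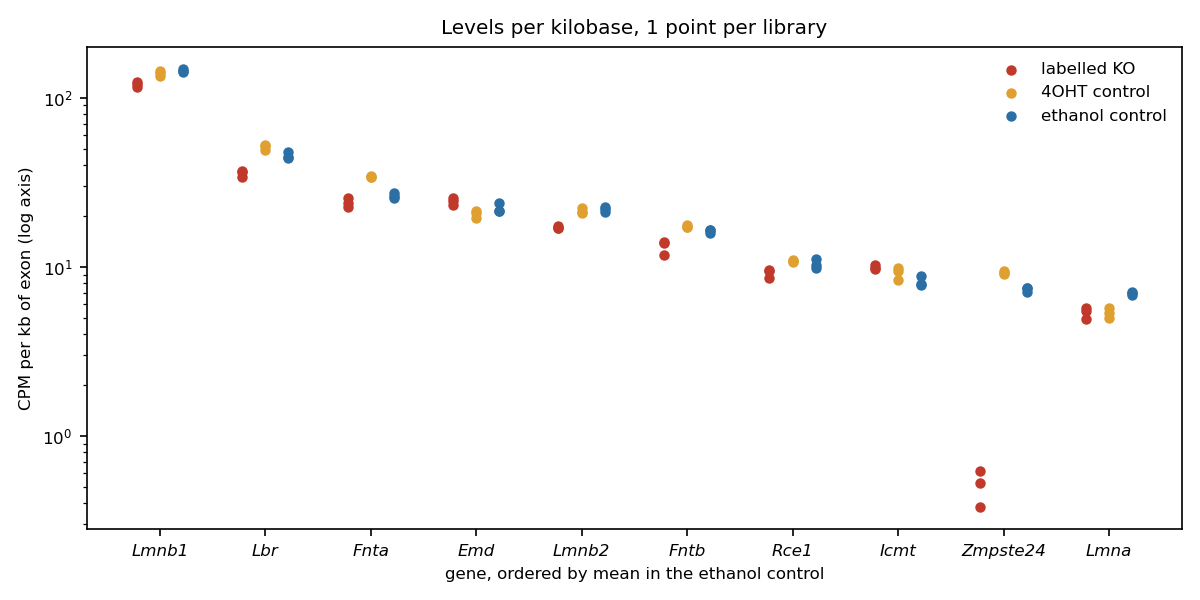
CPM per kb of annotated exon on a log axis, 1 point per library, with genes ordered by their mean in the ethanol control. Zmpste24 is among the lowest of the 10 genes in both controls and drops below every other gene in the labelled KO libraries, at 0.38 to 0.62 CPM per kb.

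Genes around the lamina were described by 4 lists. Of 20 tested nuclear envelope partners 4 rose and 2 fell against the ethanol control (median log2 fold change 0.05), where 27.2% of all genes were called, and against the 4OHT control 7 rose and 3 fell (median 0.11), where 38.9% were. Tmem43, an inner nuclear membrane protein that binds emerin and lamins, had 47.3 ± 2.07 CPM in labelled KO, 24.2 ± 1.52 CPM in 4OHT control and 26.6 ± 0.57 CPM in ethanol control libraries, and rose by 0.83 against the ethanol control (SE 0.07, edgeR adjusted p = 1.9e-07). Tor1aip1 (0.51), a lamin-binding activator of torsin ATPases, and its relative Tor1aip2 (0.41) also rose. Nrm, the gene of nurim of the inner nuclear membrane, fell by 0.58, with 14.1 ± 1.29 CPM in labelled KO, 26.7 ± 1.03 CPM in 4OHT control and 21.1 ± 0.76 CPM in ethanol control libraries. These 4 genes moved the same way against both controls, with 0.97, 0.57, 0.15 and -0.92 for Tmem43, Tor1aip1, Tor1aip2 and Nrm against the 4OHT control. The Tor1aip2 call against the 4OHT control ended in 9 of 16 alternatives (adjusted p up to 0.14). With library totals 7 partners rose and 1 fell against the ethanol control, where 3038 of all 16224 genes rose and 1527 fell. With that scaling 11 rose and 2 fell against the 4OHT control, where 4215 of all genes rose and 2328 fell. With TMM 4 rose against the 4OHT control without labelled KO replicate 3 or without 4OHT control replicate 2. The count of 2 that fell against the ethanol control was 1 without any 1 of the ethanol control libraries or of labelled KO replicates 1 and 3. It was also 1 without a filter on low counts, with a filter at 1 CPM in 3 libraries, and in a fit of only the 2 groups compared.

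Of 27 tested nuclear pore subunits 10 fell and 3 rose against the ethanol control, and 13 fell and 2 rose against the 4OHT control (median -0.12 in both). Over all genes 14.2% fell and 13% rose against the ethanol control, and 19.8% fell and 19.1% rose against the 4OHT control. With library totals 7 subunits fell and 3 rose against the ethanol control, where 1527 of all 16224 genes fell and 3038 rose. With that scaling 10 fell and 5 rose against the 4OHT control, where 2328 of all genes fell and 4215 rose. As single libraries were left out, 8 to 12 fell against the ethanol control and 10 to 13 against the 4OHT control. Sec13, which serves both the pore scaffold and the COPII vesicle coat, had 39.5 ± 1.35 CPM in labelled KO, 87.9 ± 1.48 CPM in 4OHT control and 128 ± 3.36 CPM in ethanol control libraries. It fell by 1.70 against the ethanol control (SE 0.05, edgeR adjusted p = 1.1e-12), and the 4OHT control was also lower than the ethanol control, by 0.54 (adjusted p = 2e-06). Nup88 of the cytoplasmic face (-0.38) and Nup85 of the scaffold (-0.40) fell, and Aaas, the gene of aladin (0.45), rose.

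Of 11 tested genes of isoprenoid supply and other prenyltransferases 2 rose and 2 fell against the ethanol control (median -0.13), and 1 rose and 4 fell against the 4OHT control (median -0.05), beside the 27.2% and 38.9% of all genes called. With the replicate block 5 fell against the ethanol control, where 3625 of all 16224 genes fell. With that block 2 rose against the 4OHT control, where 4139 of all genes rose. Fdps, which makes the farnesyl donor, fell by 0.42, with 64.1 ± 8.53 CPM in labelled KO, 82.8 ± 8.31 CPM in 4OHT control and 85.5 ± 9.29 CPM in ethanol control libraries (edgeR adjusted p = 0.017). Mvd, an enzyme of the mevalonate pathway, fell by 0.36. Pggt1b (0.24), the beta subunit that pairs with Fnta in GGTase I, and Rabggtb (0.62), a subunit of the enzyme that prenylates Rab proteins, rose, and Pggt1b was not called against the 4OHT control (0.09, adjusted p = 0.37). The Pggt1b call ended in 7 of 16 alternatives (adjusted p up to 0.14) and the Fdps call without ethanol control replicate 2 (0.065) or 3 (0.057). Against the 4OHT control the balance of the list depended on scaling and on single libraries. With library totals 3 rose and 2 fell there, where 4215 of all 16224 genes rose and 2328 fell. With TMM 2 fell without labelled KO replicate 1, 1 fell without 4OHT control replicate 2, and 2 rose without 4OHT control replicate 1. Against the ethanol control 1 rose without any 1 of the ethanol control libraries or of labelled KO replicates 1 and 2, and 1 fell without ethanol control replicate 2 or 3. The count that rose there was also 1 without a filter on low counts and with DESeq2.

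Of 16 other farnesylated proteins 4 rose and 3 fell against the ethanol control (median 0.05), and 2 rose and 6 fell against the 4OHT control (median -0.13), again beside 27.2% and 38.9% of all genes. The count of 2 that rose was 1 without labelled KO replicate 3 or without 4OHT control replicate 1. Ptp4a3, a prenylated phosphatase, rose by 0.88, with 91.9 ± 5.59 CPM in labelled KO, 47.6 ± 4.60 CPM in 4OHT control and 50.1 ± 4.37 CPM in ethanol control libraries (edgeR adjusted p = 5.8e-07). The small GTPase genes Rheb (0.27) and Rnd3 (0.36) rose and Nras (-0.38) fell. Rheb was not called against the 4OHT control (0.05). With the replicate block 7 of the 16 rose and 5 fell against the ethanol control, where 3311 of all 16224 genes rose and 3625 fell.

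**Figure D4:**
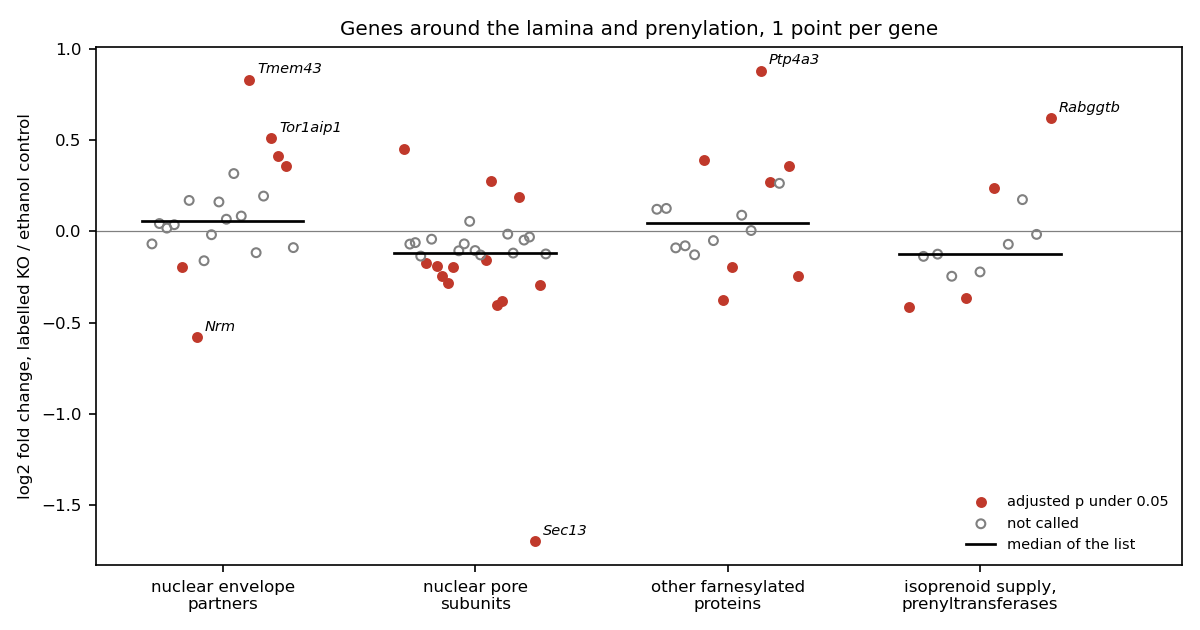
log2 fold changes of labelled KO against ethanol control libraries for the genes of 4 lists, 1 point per gene, filled where the edgeR adjusted p was under 0.05, with a line at each list's median. Medians lie between -0.13 and 0.05, and Sec13 (-1.70), Ptp4a3 (0.88) and Tmem43 (0.83) lie furthest from 0.

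The genes whose levels across the 9 libraries were most like those of Zmpste24 were taken by Pearson's r of log2 CPM among 10525 genes with an official symbol and a mean log2 CPM of at least 2. They were Rbm28, a nucleolar RNA-binding protein, Dcp1a, a factor of mRNA decapping, Ap3s2, a subunit of the AP-3 vesicle adaptor, Acsf3, a mitochondrial acyl-CoA synthetase, and Sar1b, a GTPase of the COPII coat, with r = 0.998 to 0.999. The labelled KO libraries stand apart from the controls in all 6 genes, so r mostly records that gap, and it is given with no p.

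Rbm28 had 17.9 ± 2.79 CPM in labelled KO, 121 ± 2.29 CPM in 4OHT control and 112 ± 6.71 CPM in ethanol control libraries. Ap3s2 had 10.7 ± 1.1 CPM, 71.7 ± 2.75 CPM and 58.8 ± 3.37 CPM in the labelled KO libraries, the 4OHT control and the ethanol control. Sar1b had 7.96 ± 0.69, 38.3 ± 1.84 and 32.9 ± 0.49 CPM in that order. Like Zmpste24, these genes were lowest in the labelled KO libraries and had their higher mean in the 4OHT control. They were chosen by their r with Zmpste24 over the same libraries, so this shared order is no separate result. Against the ethanol control the log2 fold changes were -4.25 for Acsf3, -2.64 for Rbm28, -2.46 for Ap3s2, -2.04 for Sar1b and -1.03 for Dcp1a, so that Acsf3, with 11 to 19 counts in labelled KO libraries, was the 1 of the 5 with a lower value than Zmpste24. Among the other lamina and processing genes, r with Zmpste24 ran from -0.75 for Emd to 0.96 for Lmnb2. The labelled KO libraries lay below every control library in Lmnb2 too, so its r also mostly records that gap. Its log2 fold changes were only -0.36 against the ethanol control and -0.32 against the 4OHT control.

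**Figure D5:**
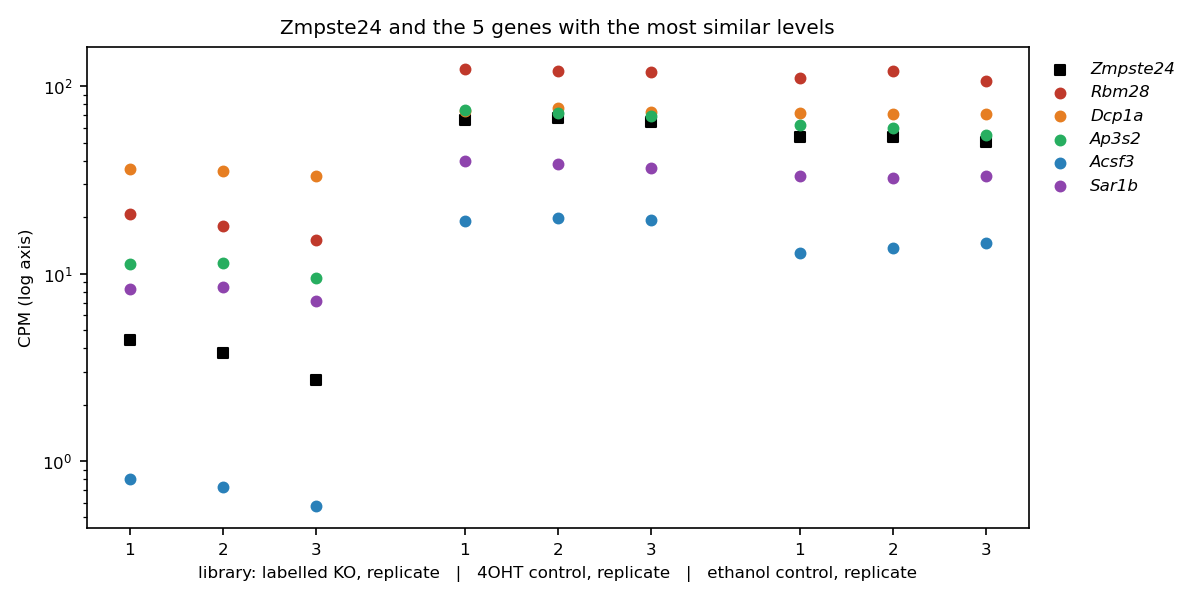
CPM on a log axis in each library for Zmpste24 (squares) and the 5 genes most like it (circles), in the order labelled KO, 4OHT control and ethanol control. All 6 genes are lowest in the 3 labelled KO libraries, by about 1.03 log2 units for Dcp1a and 4.25 for Acsf3 against the ethanol control.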

How the data were processed

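Directional libraries were prepared from total RNA after depletion of ribosomal RNA, per the labels' protocols. Each library has 1 deposited file of raw counts by versioned Ensembl gene. Named without roles in the submitters' processing notes are the build mm9 and the tools HTSeq, STAR, cutadapt, edgeR, DiffBind, MACS2 and Bowtie 1.1.2. How the counting used strand is not stated, so a gene and an antisense partner may share reads. The closing rows that name no gene were left out of totals and tests. The share of reads assigned to no gene is given by group in the report.

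Symbols were matched without identifier versions for 32620 of 37310 rows. Exon lengths and overlaps came from GENCODE M21, which is on another build, so no gene coordinates are given. Sequences are from RefSeq on GRCm38.p6. The 10 genes and the 4 lists were chosen with earlier results of these data known. Of the listed symbols, Syne1, Hmgcs1, Nup62, Nup42 and Sox1 had no matching row, and Mlip was under the filter.

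Genes were tested by quasi-likelihood in edgeR 4.0.16 under R 4.3.3 (TMM scaling, filterByExpr, robust estimates) over all 9 libraries with a mean per group, with Benjamini-Hochberg adjustment over 16224 genes and calls at 0.05. "Rose" and "fell" refer to such calls. SE is the log2 fold change divided by the square root of F. DESeq2 1.42.0 and the other alternatives are in the closing section.

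Genes named from the lists are up to 4 called members with the smallest p against the ethanol control, and those most like Zmpste24 are the 5 with the highest r. In a check of pairing, deviations from group means correlated at 0.11 to 0.31 in all 9 same-numbered pairs of libraries, and at -0.23 to -0.02 in the 18 pairs with different numbers. The labels do not say what a number stands for, and a fit blocked on it was run as an alternative. Its value stands beside a gene where it changed the call.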

Additional observations from a re-analysis of the deposited data

How the results depend on the processing

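The 10 genes were recomputed in 3 comparisons under 16 alternatives, which gives 480 values; 459 kept their direction and side of the threshold, 11 lost and 7 gained a call, and 3 changed sign. The changes of sign were all in Lmna against the 4OHT control, a difference never called, which ran from -0.033 to 0.069 as single libraries were left out. With the replicate block 6936 genes were called in labelled KO against ethanol control libraries, beside 4417 without it, and 5323 beside 2987 in the 4OHT control against the ethanol control. The block changed no call of the 10 genes beyond those named in the report (Fnta, Emd and Icmt), so that 2 of the 9 rose against the ethanol control. With library totals 2 of the 9 were called higher against each control. With that scaling 3038 of all 16224 genes were higher against the ethanol control and 4215 against the 4OHT control. Without a filter on low counts 1 of the 9, in place of 2, was higher in the 4OHT control than in the ethanol control. Leaving out single libraries gave 1 to 3 there, and 1974 to 3069 genes called in that comparison, the lowest without ethanol control replicate 2. In a check added after seeing the data, 398 of 416 recomputed values of the genes named from the lists or as most like Zmpste24 kept direction and call and 18 lost the call, all of them in Pggt1b, Tor1aip2 or Fdps. Of 256 recomputed counts in the 4 lists, 222 stayed within 1.5 times. Depth limits the labelled KO values of Zmpste24, which rest on 52 to 104 counts per library, and those of Acsf3, which rest on 11 to 19.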
